A study of Mus musculus with 6 samples.

Results

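Gm7609 is a gene of mouse chromosome 1 that lies among relatives of Sp100, and it was examined here together with 9 of them, 10 genes in all. Of these, 6 are among the 24520 identifiers measured, namely Gm7609, Sp100, Sp110, Sp140, C130026I21Rik and A530032D15Rik. The levels of the other 4, Gm15433, Gm2666, Gm7592 and Gm7582, were not analysed here. The members were chosen by their TPM in these same libraries, Gm7609 for its higher level at 18 than at 8 months, and the others for their kinship or position. The age differences of the members, and any count of those past a threshold, are therefore a description and no evidence of a difference. RNA was sequenced from endothelial cells, the lining cells of blood and lymph vessels, which had been isolated from wild-type (wt) mouse lungs by FACS. There were 3 libraries from mice aged 18 months and 3 from mice aged 8 months. The labels give no treatment other than age, and neither strain, sex nor sort markers. Nor do they tie each library to its own animal, so every p-value reflects library-to-library spread, part of which may be technical.

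The Sp100 proteins are nuclear proteins with an N-terminal domain through which they self-associate. Most also carry a SAND domain, which binds DNA, and some add a PHD finger and a bromodomain, which read histones. Sp100 is a defining component of PML nuclear bodies, protein assemblies that take part in chromatin regulation and in the defence of the cell against viruses. The family is induced by interferon, and in mice Sp110 (also called Ipr1) and Sp140 have been linked to resistance against intracellular bacteria and to restraint of type I interferon. The mouse locus has gained many copies and remnants of these genes, among them fusions of the start of Sp100 with an unrelated gene, Csprs. Csprs itself is annotated on a scaffold that is not placed on the chromosome, and was not analysed here.

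The copies fall into 2 sequence families, and the sequences below show how close their members are, which bears on every value given for them. Gm7609 spans chr1:85199613-85213786 on the plus strand (GRCm38) and is a transcribed unprocessed pseudogene in GENCODE release M21, while RefSeq calls it protein-coding. Its second exon is found again in Sp100, within the coding sequence of the third exon of the transcript Sp100-201. Both stretches are 169 bases long and are shown 5′ to 3′ with the base that differs in capitals. Gm7609 lies at chr1:85202140-85202308 and Sp100 at chr1:85662473-85662641, both on the plus strand.
Gm7609 exon 2: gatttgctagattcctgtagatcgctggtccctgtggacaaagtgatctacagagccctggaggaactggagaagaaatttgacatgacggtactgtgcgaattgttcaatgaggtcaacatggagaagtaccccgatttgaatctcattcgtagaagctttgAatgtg
Sp100 exon 3: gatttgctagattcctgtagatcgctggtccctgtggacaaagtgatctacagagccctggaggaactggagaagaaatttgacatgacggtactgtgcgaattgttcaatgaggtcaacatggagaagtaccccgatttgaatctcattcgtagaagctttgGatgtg
A single base differs, and the same exon in Gm7592 and in Gm7582 differed from that of Gm7609 at 0 of the 169 bases. The last exon of Gm7609 has no counterpart in Sp100 but recurs in Gm15433 and Gm2666, annotated as processed pseudogenes of 891 bases. Over that length Gm15433 matched the Gm7609 transcript at 885 bases (99.3%) and Gm2666 at 877 bases (98.4%). The first 160 bases of that shared stretch are shown, with the 3 bases that vary in capitals. They lie at chr1:85212650-85212809 on the plus strand in Gm7609, at chr1:84963669-84963828 on the plus strand in Gm15433 and at chr1:85484983-85485142 on the minus strand in Gm2666.
Gm7609 last exon: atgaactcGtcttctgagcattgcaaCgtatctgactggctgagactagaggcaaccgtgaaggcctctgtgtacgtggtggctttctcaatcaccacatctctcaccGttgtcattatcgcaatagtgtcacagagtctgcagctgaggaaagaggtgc
Gm15433: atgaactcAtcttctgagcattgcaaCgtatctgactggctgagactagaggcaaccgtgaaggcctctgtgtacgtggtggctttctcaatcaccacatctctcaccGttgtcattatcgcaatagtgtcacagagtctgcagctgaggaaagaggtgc
Gm2666: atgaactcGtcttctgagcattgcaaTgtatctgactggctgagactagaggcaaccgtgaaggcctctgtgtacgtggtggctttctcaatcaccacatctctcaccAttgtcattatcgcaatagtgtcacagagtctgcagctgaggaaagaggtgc
Against Gm7609, Gm15433 differs at 1 of these 160 bases and Gm2666 at 2. In the third exon of the transcript Gm7609-201, none of the sequences of 31 bases occurred in a GENCODE transcript of another gene. It is not the only part that sets Gm7609 apart. In the second exon of Gm7609-203, 27.2% of such sequences were shared with another gene. The third exon of Gm7609-201 covers 194 bases at chr1:85208004-85208197 on the plus strand.
Gm7609 exon 3: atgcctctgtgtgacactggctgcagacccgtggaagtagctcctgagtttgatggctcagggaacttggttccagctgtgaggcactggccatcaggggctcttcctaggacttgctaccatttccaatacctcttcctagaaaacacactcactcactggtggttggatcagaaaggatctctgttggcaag

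The share of sequences of 31 bases held in common puts numbers on this, because kallisto, the program named in the submitters' processing notes, assigns reads by short sequences of that kind. Of the 2551 distinct 31-base sequences in the 4 Gm7609 transcripts, 48.3% were present in at least 1 further gene and 16.6% in transcripts of genes that have a row in the deposited table. Gm15433 held 27.3% of them, Gm2666 19.6%, Gm7592 14.9%, Gm7582 11.6% and Sp100 11.4%. In the other direction, between 75.1% and 94.4% of the sequences of Gm15433, Gm2666, Gm7592 and Gm7582 occurred in another member, with 81.0% of the Gm15433 sequences and 63.7% of the Gm7592 sequences found in Gm7609. Sp100 itself stood more apart, with 9.2% of its 7654 sequences found in any other gene and 3.79% in Gm7609. The second family held Sp110, Sp140, C130026I21Rik and A530032D15Rik. Of the A530032D15Rik sequences, 40.6% occurred in Sp140 and 32.1% in C130026I21Rik, and of the Sp140 sequences 26.9% occurred in Arhgef12, a gene outside the cluster. Sp110 shared 36.1% of its sequences with Gm16026, a pseudogene that was not analysed here. Gm7609 had no 31-base sequence in common with any of these 4 genes. The level of each member is uncertain to the extent that the authors' transcript set, which is not given in the sources used here, held or lacked these copies.

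**Figure D1:**
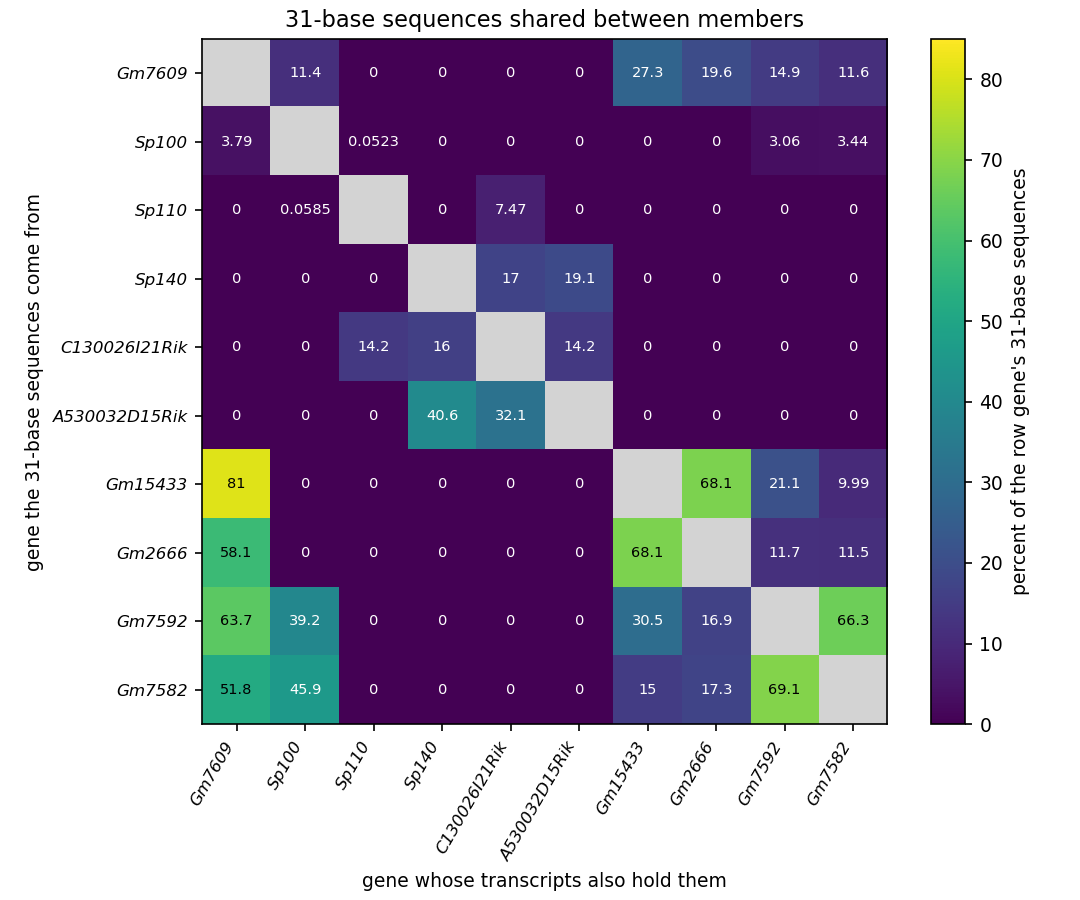
Percentage of each gene's 31-base transcript sequences (rows) that also occur in transcripts of another member (columns), in GENCODE release M21. Gm7609 shares sequence with Sp100 and the 4 pseudogenes without a value, up to 81% of Gm15433, and shares 0 with Sp110, Sp140, C130026I21Rik and A530032D15Rik. Of these, C130026I21Rik shares sequence with the other 3, and Sp140 and A530032D15Rik also share it directly.

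Windows of 100 bases, the read length per the labels, give a second view of how well a transcript can be told from the copies. The reads were paired, but each window was counted alone, without the other read of its pair. In Gm7609-203, whose second exon extends further than that of the others, 93.2% of the windows held at least 1 sequence of 31 bases found in no other gene. In Gm7609-201 this was 68.1%, in Gm7609-204 56.4% and in Gm7609-202 43.1%. Counted against the genes that have a row in the table, the shares were 93.9%, 94.0%, 82.3% and 91.5%. The table gives 1 value per gene, so which of the 4 Gm7609 transcripts carried the reads was not tested.

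RefSeq has windows from 250 bases before to 50 bases after the start site for 6 of the 10 members (GRCm38.p6), those with measured values. The window of Gm7609 and that of Sp100 matched at 293 of 298 aligned bases, without a gap. They are printed because these genes have nearly the same promoter sequence, while their measured levels and age differences were unlike. Whether the promoter sequence bears on either was not tested. Capitals mark matches to AANNGAAA, the core recognised by interferon regulatory factors, here on the reverse strand. Gm7609 is at chr1:85199361-85199660 and Sp100 at chr1:85649764-85650063, both on the plus strand.
Gm7609 promoter: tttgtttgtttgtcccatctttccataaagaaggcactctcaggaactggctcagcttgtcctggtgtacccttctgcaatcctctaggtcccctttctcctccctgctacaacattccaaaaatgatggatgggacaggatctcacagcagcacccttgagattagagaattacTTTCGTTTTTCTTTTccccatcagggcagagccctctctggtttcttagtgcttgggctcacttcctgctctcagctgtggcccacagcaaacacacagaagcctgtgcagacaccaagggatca
Sp100 promoter: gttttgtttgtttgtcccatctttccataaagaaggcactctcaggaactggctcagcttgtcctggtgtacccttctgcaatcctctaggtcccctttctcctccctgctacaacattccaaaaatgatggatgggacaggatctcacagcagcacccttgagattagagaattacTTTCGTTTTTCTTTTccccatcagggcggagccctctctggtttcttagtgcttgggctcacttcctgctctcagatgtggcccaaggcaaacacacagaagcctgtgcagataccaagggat
Both windows held 2 overlapping matches to AANNGAAA, which begin 75 and 68 bases before the start site in Gm7609 and 73 and 66 bases before it in Sp100. The downstream of the 2 Sp110 windows held 2 matches as well, 9 and 16 bases after the start site. Of all 32851 RefSeq windows, 23.9% held this motif on either strand. The longer interferon-stimulated response element core, GAAA and again GAAA after any 2 bases, which contains AANNGAAA, occurred in 3.44% of all windows, and TTCNNNGAA, the core recognised by STAT factors, in 8.30%. Neither was in any member's window.

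In the second family, the Sp140 window matched that of A530032D15Rik at 270 of 271 aligned bases and that of C130026I21Rik at 254 of 255. These windows held no match to the 3 motifs, so nothing is in capitals. Sp140 is at chr1:85600453-85600752 on the plus strand and C130026I21Rik at chr1:85270517-85270816 on the minus strand, and they are shown because their levels differ, at 29.6 against 3.94 TPM at 18 months, under nearly the same promoter sequence.
Sp140 promoter: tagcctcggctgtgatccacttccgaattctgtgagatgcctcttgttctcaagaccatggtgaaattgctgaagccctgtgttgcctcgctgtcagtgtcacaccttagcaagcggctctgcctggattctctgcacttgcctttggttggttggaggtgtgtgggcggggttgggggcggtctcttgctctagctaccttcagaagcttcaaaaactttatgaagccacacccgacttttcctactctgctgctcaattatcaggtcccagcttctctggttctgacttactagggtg
C130026I21Rik promoter: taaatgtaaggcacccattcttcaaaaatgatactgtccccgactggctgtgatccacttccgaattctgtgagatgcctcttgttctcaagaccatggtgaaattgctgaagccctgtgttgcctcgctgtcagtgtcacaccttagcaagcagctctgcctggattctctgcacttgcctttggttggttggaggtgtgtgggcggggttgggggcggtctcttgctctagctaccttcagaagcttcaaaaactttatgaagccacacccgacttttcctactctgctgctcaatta

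Gm7609 was the member with the largest ratio between the ages. It measured 12.3, 18.4 and 13.0 TPM (a level scaled by transcript length and library total) in the 18-month libraries, against 2.32, 2.44 and 2.62 TPM in the 8-month libraries. The ages were far apart, and the 8-month libraries nearly coincided while the second 18-month library stood above the other 18-month libraries. The mean was 14.6 ± 3.30 TPM at 18 months and 2.46 ± 0.149 TPM at 8 months (SD, n = 3 each), 5.93 times as high, or a log2 change of 2.15 with an SE of 0.18 on the scale of log2(TPM + 1). Without the second 18-month library the log2 difference was 1.98. In sorted cells measured in bulk, a change in the number of cells that make a transcript and a change in the amount per cell cannot be told apart.

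Sp100, which shares its promoter sequence and second-exon sequence with Gm7609, was the most abundant member and differed little. It measured 220.1, 271.8 and 262.9 TPM in the 18-month libraries, against 191.9, 208.4 and 253.4 TPM in the 8-month libraries. The ages overlapped, with the third 8-month library above the first 18-month library. Its mean was 251.6 ± 27.6 TPM at 18 months and 217.9 ± 31.8 TPM at 8 months (SD, n = 3 each), 1.15 times as high. The log2 difference was 0.21 with an SE of 0.13, and it was 0.12 without the first 8-month library and 0.32 without the third.

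Sp110, a relative with a SAND domain that is known in mice as Ipr1, came next in level. It measured 99.2, 130.8 and 106.3 TPM in the 18-month libraries, against 76.8, 85.6 and 82.7 TPM in the 8-month libraries. The ages did not overlap, and the second 18-month library was the highest. The mean was 112.1 ± 16.6 TPM at 18 months and 81.7 ± 4.49 TPM at 8 months (SD, n = 3 each), 1.37 times as high.

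Sp140, the relative with a bromodomain, measured 25.7, 33.9 and 29.1 TPM in the 18-month libraries, against 18.5, 25.0 and 20.7 TPM in the 8-month libraries. The ages did not overlap, but the lowest 18-month library was close to the highest 8-month library. The means were 29.6 ± 4.11 TPM at 18 months and 21.4 ± 3.31 TPM at 8 months (SD, n = 3 each), a ratio of 1.38.

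C130026I21Rik is a protein-coding copy close to Sp140, whose annotated span (chr1:84992690-85270566, minus strand) runs over Gm7609 on the opposite strand in GENCODE. The RefSeq span, chr1:85241286-85282883, does not reach Gm7609. It measured 2.71, 5.18 and 3.93 TPM in the 18-month libraries, against 0.955, 1.32 and 1.95 TPM in the 8-month libraries. All 18-month libraries were above all 8-month libraries, again with the second 18-month library highest. Its mean was 3.94 ± 1.24 TPM at 18 months and 1.41 ± 0.503 TPM at 8 months (SD, n = 3 each), 2.79 times as high, or a log2 change of 1.02 with an SE of 0.25. The library kit does not mark the strand of the RNA.

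A530032D15Rik, the other protein-coding copy close to Sp140, was the member with the lowest level. It measured 1.36, 1.54 and 1.59 TPM in the 18-month libraries, against 0.323, 1.82 and 0.959 TPM in the 8-month libraries. The ages overlapped, and the 8-month libraries spread over the widest range for their mean of any member. The means were 1.5 ± 0.123 TPM at 18 months and 1.03 ± 0.750 TPM at 8 months (SD, n = 3 each).

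**Figure D2:**
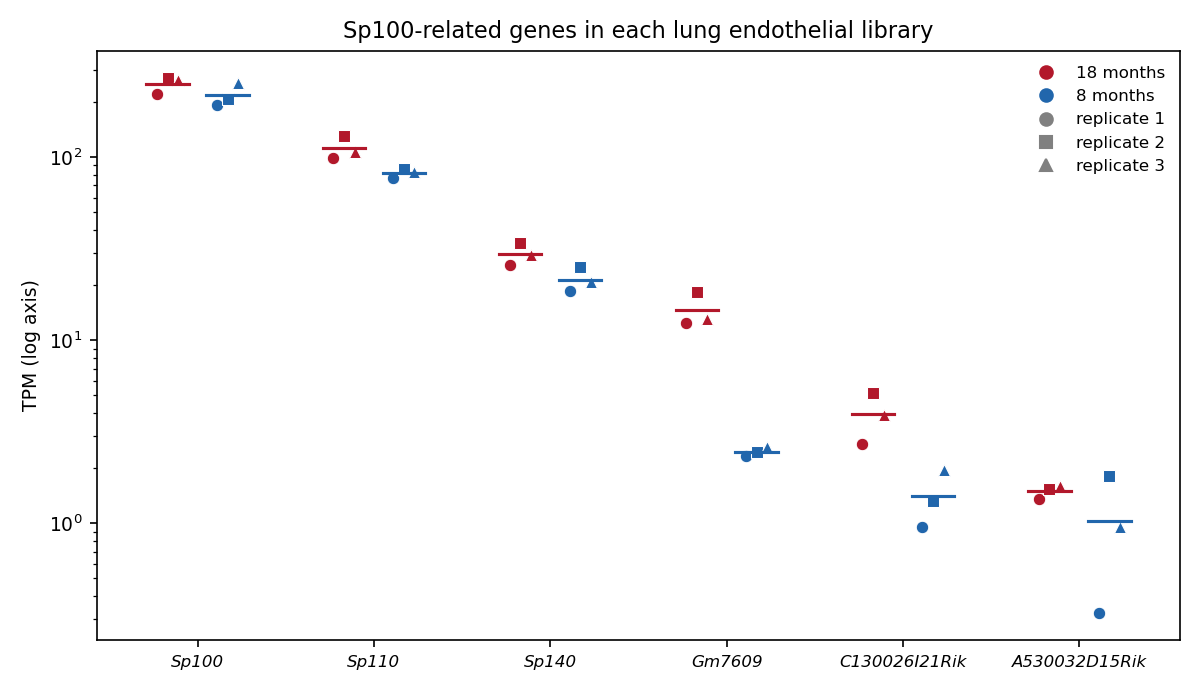
TPM (log axis) of the 6 members with values in each library, 18 months in red on the left of each pair and 8 months in blue on the right; marker shapes give the replicate number and lines the mean of 3 libraries. Gm7609 lies between 12.3 and 18.4 TPM at 18 months, against 2.32 to 2.62 TPM at 8 months, while the libraries of the ages overlap for Sp100 and A530032D15Rik.

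The order of the levels was Sp100, Sp110, Sp140, Gm7609, C130026I21Rik and A530032D15Rik at both ages. At 18 months no 2 neighbours in that order overlapped in their libraries. At 8 months C130026I21Rik and A530032D15Rik overlapped, and the others did not. The 6 members all averaged at least 1 TPM across the libraries, the filter used, and all had a higher mean at 18 months. In 4 of the 6, namely Gm7609, Sp110, Sp140 and C130026I21Rik, every 18-month library was above every 8-month library, which held for 4.48% of the 12748 genes tested. Every 18-month library was below every 8-month library in 14.2% of the genes tested. Of the 6, limma called 1, Gm7609, at an adjusted p under 0.05, a threshold passed by 0.0235% of the genes tested (0.00784% higher and 0.0157% lower at 18 months). The members were chosen with these differences known, so nothing is read from those counts. Gm7609 was not called when any single library was left out, without the filter on low values or with the replicate block. With median-of-ratios scaling limma called 8 genes as higher and 8 as lower, Gm7609 among them.

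Levels were also summed over the related copies with values. The sum of the 6 members was 361.4, 461.6 and 416.8 TPM in the 18-month libraries, against 290.8, 324.7 and 362.4 TPM in the 8-month libraries. The lowest 18-month library fell just below the highest 8-month library, so the ages overlapped. The means were 413.3 ± 50.2 TPM at 18 months and 325.9 ± 35.8 TPM at 8 months (SD, n = 3 each), 1.27 times as high.

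Gm7609 made up little of that sum. It was 3.41%, 3.98% and 3.13% of it in the 18-month libraries, against 0.798%, 0.753% and 0.722% in the 8-month libraries. Gm7609 and Sp100 together, the members with values in the first sequence family, came to 232.5, 290.2 and 275.9 TPM in the 18-month libraries, against 194.2, 210.9 and 256.0 TPM in the 8-month libraries. These sums overlapped between the ages too, at means of 266.2 ± 30.1 TPM and 220.4 ± 32.0 TPM (SD, n = 3 each). The Gm7609 difference of 12.1 TPM was smaller than the SD of Sp100 among libraries of either age.

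Relative to Sp100 in the same library, the ages did not overlap. Gm7609 stood at 5.60%, 6.76% and 4.96% of the Sp100 level in the 18-month libraries, against 1.21%, 1.17% and 1.03% in the 8-month libraries. This ratio cancels what moves both genes alike in a library, such as its scaling. Sp100 made up 60.9%, 58.9% and 63.1% of the sum in the 18-month libraries, against 66.0%, 64.2% and 69.9% in the 8-month libraries. Without Gm7609 the sum of the other 5 members was still higher at 18 months, at 398.7 ± 47.3 TPM against 323.5 ± 35.6 TPM (SD, n = 3 each), with overlapping libraries. The 3 copies of the second family with nearly the same promoter (Sp140, C130026I21Rik and A530032D15Rik) summed to 29.8, 40.6 and 34.6 TPM in the 18-month libraries, against 19.8, 28.1 and 23.7 TPM in the 8-month libraries. Those sums did not overlap.

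**Figure D3:**
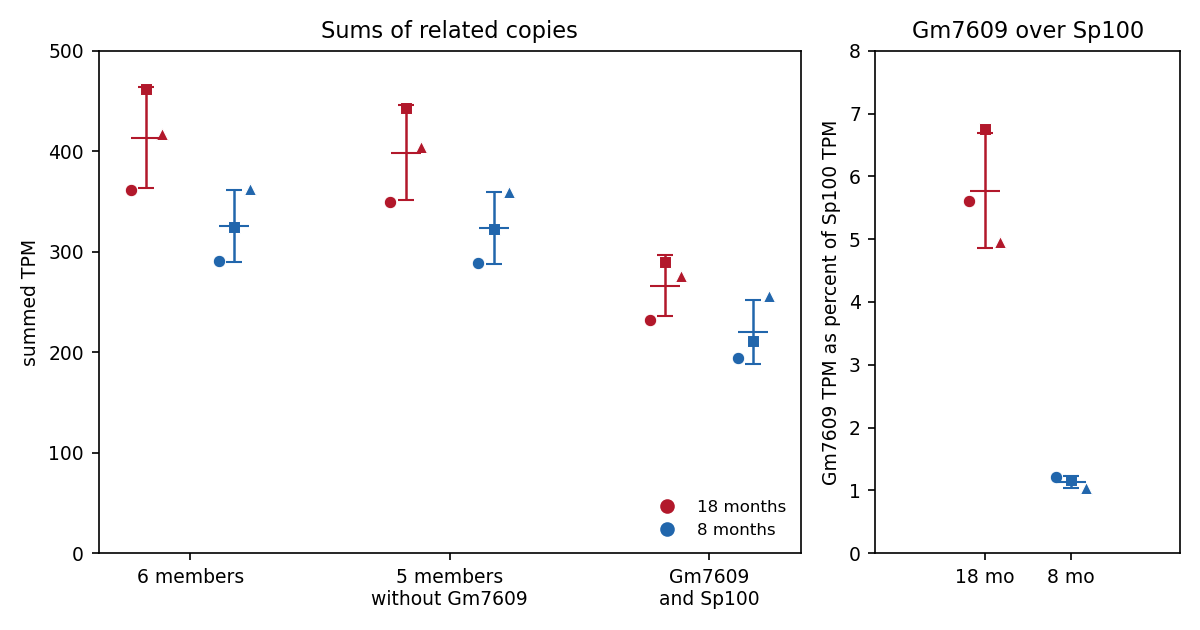
Left, summed TPM per library for the 6 members, for the 5 members without Gm7609 and for Gm7609 with Sp100. Right, Gm7609 as a percentage of Sp100 in the same library. Points are libraries (18 months red, 8 months blue), bars the mean ± SD of 3. The sums overlap between the ages, at 361.4 to 461.6 against 290.8 to 362.4 TPM for the 6 members, while the ratio does not, at 4.96% to 6.76% against 1.03% to 1.21%.

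None of the tested genes around the cluster passed the test. Of the 52 other annotated genes within 1 Mb of Gm7609, 19 had a row and 8 had a mean of at least 1 TPM. Limma called 0 of these 8, and before adjustment 0 were higher and 1 lower at p under 0.05, a level at which 3.45% of all genes tested were higher and 9.99% lower. Their median log2 difference was -0.06, against -0.08 over all genes tested, and it was above 0 under quantile normalization (0.036) or median-of-ratios scaling (0.040) and without the second 18-month library (0.019). The gene with the smallest p was Htr2b, a serotonin receptor, which was lower at 18 months without overlap of the ages. Htr2b measured 19.9, 16.3 and 13.6 TPM in the 18-month libraries, against 30.3, 23.0 and 37.7 TPM in the 8-month libraries, a log2 change of -0.82 (95% limits -1.29 and -0.35, limma adjusted p = 0.18). Fbxo36, an F-box protein gene and the last tested gene before the cluster, measured 8.74, 10.8 and 7.25 TPM against 6.81, 7.09 and 5.87 TPM. Its ages did not overlap, with a log2 change of 0.38 (95% limits -0.02 and 0.77, limma adjusted p = 0.40). Of all 8 neighbours tested, 2 were higher and 2 lower without overlap, against 4.48% and 14.2% of the genes tested. On the far side of Sp100, A630001G21Rik measured 4.39, 2.51 and 3.23 TPM against 1.83, 1.62 and 3.26 TPM, with overlapping ages (limma adjusted p = 0.50). Itm2c, a membrane protein gene, measured 62.9, 44.1 and 55.1 TPM against 58.6, 88.9 and 64.1 TPM, also with overlapping ages (limma adjusted p = 0.45).

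**Figure D4:**
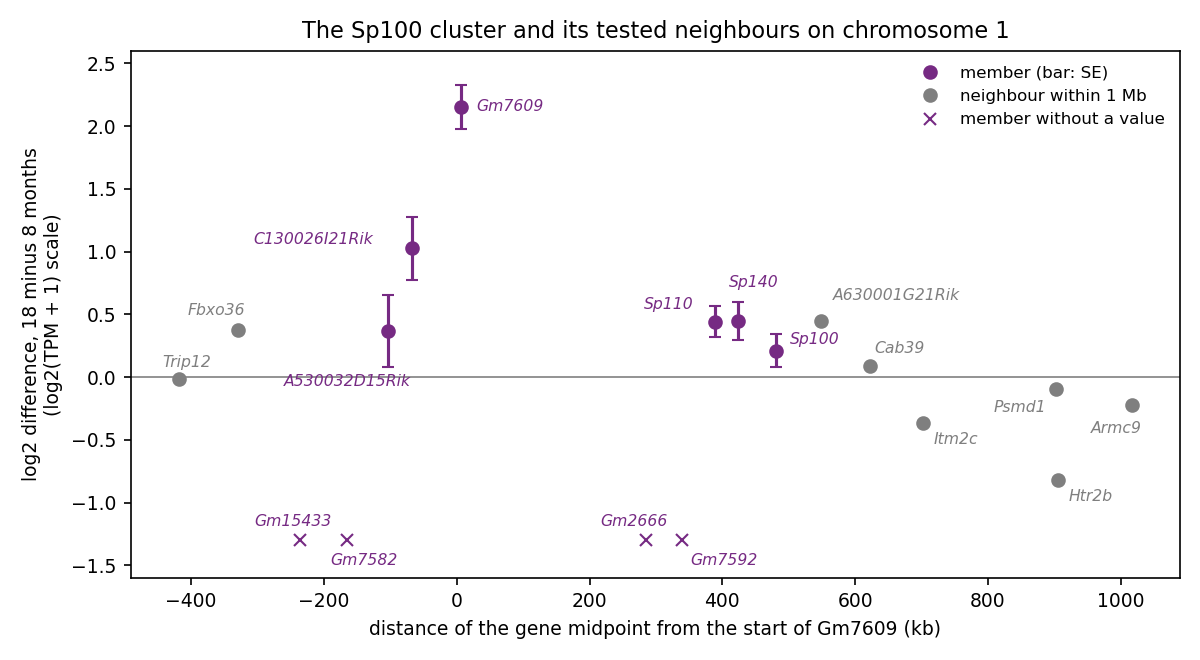
Log2 difference between 18 and 8 months (y axis, log2(TPM + 1) scale) by distance of each gene's midpoint from the start of Gm7609 in kb (x axis). Members are purple with SE bars, tested neighbours grey, and members without a value are crosses at the bottom. Gm7609 lies at 2.15 and C130026I21Rik at 1.02, while the 8 neighbours lie between -0.82 and 0.45.

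Partners of Sp100 in PML nuclear bodies did not pass the test. Of the 36 genes listed, all tested, limma called 0, with 0 higher and 2 lower (5.56%) at an unadjusted p under 0.05, against 3.45% and 9.99% of all genes tested. Their median log2 difference was -0.04, and it was above 0 under quantile normalization (0.0024) or median-of-ratios scaling (0.052) and without the second 18-month library (0.0085). Pias4 and Sae1, which had the smallest p, belong to the machinery that attaches SUMO, the small protein tag that holds these bodies together. Pias4, a SUMO ligase, measured 18.3, 17.8 and 18.3 TPM in the 18-month libraries, against 29.2, 30.3 and 20.3 TPM in the 8-month libraries, a log2 change of -0.51 (95% limits -0.88 and -0.14, limma adjusted p = 0.23). Sae1, a subunit of the SUMO-activating enzyme, measured 53.7 ± 4.04 TPM at 18 months and 63.1 ± 1.0 TPM at 8 months (SD, n = 3 each, limma adjusted p = 0.34). The ages did not overlap in Pias4 or in Sae1, both lower at 18 months and named for their small p. Over the whole list, 4 of 36 were lower and 0 higher without overlap, against 14.2% and 4.48% of the genes tested. Hipk1, a kinase found in the bodies, measured 24.9 ± 2.25 TPM and 20.7 ± 3.80 TPM with overlapping libraries (limma adjusted p = 0.51).

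Other genes with SAND domains, bromodomains or related chromatin readers did not pass either. Of 20 listed genes 18 were tested and limma called 0, with 1 higher (5.56%) and 0 lower at an unadjusted p under 0.05, against 3.45% and 9.99% of all genes tested. Their median log2 difference was 0.01, and it was below 0 without the first 18-month library (-0.10), the first 8-month library (-0.0056) or the third 8-month library (-0.028). Trim24, a bromodomain protein, measured 12.4, 10.3 and 11.3 TPM in the 18-month libraries, against 7.44, 8.60 and 7.71 TPM in the 8-month libraries. Its ages did not overlap, with a log2 change of 0.47 (95% limits 0.15 and 0.78, limma adjusted p = 0.20). Over the whole list, 1 of 18 was higher and 0 lower without overlap, against 4.48% and 14.2% of the genes tested. Baz2a, Gmeb1 and Cbx3 had overlapping libraries, with limma adjusted p of 0.65, 0.70 and 0.75.

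Interferon response genes, the wider group to which the family belongs, did not pass the test either. Of 45 listed genes 43 were tested, none of them a member, and limma called 0. Before adjustment, 12 were higher (27.9%) and 1 lower (2.33%) at p under 0.05, against 3.45% and 9.99% of all genes tested. The difference was above 0 in 35 and below 0 in 8, with a median of 0.16 against -0.08 over all genes tested, and that median was 0.046 without the second 18-month library. Oas2, a sensor of double-stranded RNA, measured 43.0, 43.7 and 39.3 TPM in the 18-month libraries, against 20.0, 19.6 and 26.9 TPM in the 8-month libraries. Its ages did not overlap, with a log2 change of 0.91 (95% limits 0.58 and 1.23, limma adjusted p = 0.099). Zbp1, a sensor of nucleic acids in the Z form, measured 25.9, 55.3 and 32.1 TPM against 15.8, 16.3 and 20.2 TPM (limma adjusted p = 0.19). Oas1a, a relative of Oas2, measured 66.7, 104.6 and 69.6 TPM against 53.3, 46.6 and 60.9 TPM (limma adjusted p = 0.26). Trim25, which activates an RNA sensor, was lower at 33.4, 27.8 and 30.0 TPM against 38.3, 38.2 and 38.8 TPM (limma adjusted p = 0.23). The ages did not overlap in these 4 genes, which were named for their small p. Over the whole list, 8 of 43 were higher and 1 lower without overlap, against 4.48% and 14.2% of the genes tested.

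The mean of the interferon list in log2(TPM + 1) was 5.58, 5.98 and 5.69 in the 18-month libraries, against 5.44, 5.41 and 5.65 in the 8-month libraries. The second 18-month library had the highest interferon mean and also the highest Gm7609, Sp100, Sp110, Sp140 and C130026I21Rik. After each age's mean was subtracted, the list mean correlated with Gm7609 at r = 0.92, with C130026I21Rik at 0.91, with Sp110 at 0.81, with Sp100 at 0.80, with Sp140 at 0.47 and with A530032D15Rik at 0.02. These coefficients are over 6 libraries and all share the same second 18-month library, so they describe these libraries only. The third 8-month library had an interferon mean near those of the first and the third 18-month library, and Gm7609 there was 2.62 TPM, against 12.3 and 13.0 TPM in those 2. The part of interferon activity in the Gm7609 level was not tested.

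**Figure D5:**
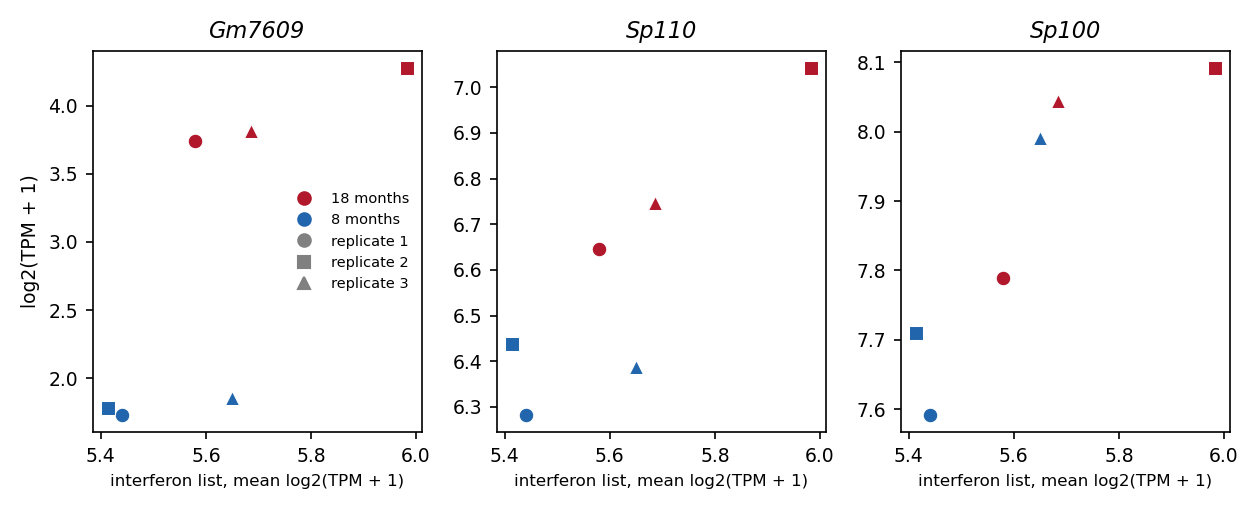
Level of Gm7609, Sp110 and Sp100 in each library (y axis, log2(TPM + 1)) against the mean of 43 interferon response genes (x axis, log2(TPM + 1)), 18 months in red and 8 months in blue. At an interferon mean of about 5.6 to 5.7, Gm7609 is 12.3 and 13.0 TPM in 2 libraries of 18 months, against 2.62 TPM in the third 8-month library.

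The Sp100 family is also expressed in leukocytes, so the purity of the sort bears on these values. All 15 endothelial markers were detected, with sums of 13332 to 14188 TPM at 18 months and 14231 to 15650 TPM at 8 months, which did not overlap. Their median log2 difference was -0.13, against -0.08 over all genes tested. Without overlap, 5 of the 15 were lower and 1 higher at 18 months, against 14.2% and 4.48% of the genes tested. At an unadjusted limma p under 0.05, 26.7% were lower and 6.67% higher, against 9.99% and 3.45% of the genes tested. The 8 pan-leukocyte markers summed to 155.4 to 184.2 TPM at 18 months and 152.4 to 227.6 TPM at 8 months. Monocyte, macrophage and dendritic cell markers summed to 989.2 to 1770 TPM and 663.6 to 1845 TPM over the 20 listed genes, B cell markers to 12.1 to 18.6 TPM and 16.1 to 48.0 TPM over 10 of 12, and T and NK cell markers to 25.7 to 37.9 TPM and 17.6 to 55.4 TPM over 13 of 14. In each of these 4 leukocyte lists the ages overlapped and the third 8-month library had the highest sum, while Gm7609, Sp110 and Sp140 in that library stayed below every 18-month library. Sp100 in that library, at 253.4 TPM, was above the first 18-month library, at 220.1 TPM. The monocyte list summed to 663.6 and 742.7 TPM in the other 8-month libraries, below every 18-month library. In 13 of its 14 tested genes the log2 difference was above 0, with a median of 0.46 against -0.08 over all genes tested. Lyz2, the most abundant gene of that list, measured 1287, 1235 and 614.3 TPM in the 18-month libraries, against 568.0, 618.8 and 1542 TPM in the 8-month libraries. Its ages overlapped, with a log2 difference of 0.28. Chil3, a macrophage gene and the next in level, measured 140.5, 390.6 and 248.8 TPM in the 18-month libraries, against 26.7, 31.4 and 140.1 TPM in the 8-month libraries. The log2 difference of Chil3 was 2.26, the largest of the 14 tested genes, beside 2.15 for Gm7609. The lowest 18-month library of Chil3 was just above its highest 8-month library. Neutrophil markers summed to 15.4 to 19.0 TPM and 14.9 to 16.9 TPM, with Ly6g at 0 in all libraries. Lung epithelial markers, led by Scgb1a1 of club cells and Sftpc of type II cells, summed to 9521 to 19270 TPM at 18 months and 11064 to 20207 TPM at 8 months. The part of non-endothelial RNA in the level of each member was not tested.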

How the data were processed

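RNA of sorted lung endothelial cells was sequenced in 6 libraries, with the SMARTer Ultra Low kit and paired reads of 100 bp per the labels' protocols. The deposited values are TPM for 24520 Ensembl genes, made with kallisto on mm10 per the submitters' processing notes. The version, the transcript set and how transcripts were summed to genes: not given in the sources used here. Library totals run from 869315 to 876126. TPM keep no depth, so depth is unknown and counting error cannot be stated.

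Identifiers were matched to GENCODE M21 (GRCm38), which holds 24298 of them, and sequences were taken from its transcripts and from RefSeq windows. Sequences of 31 bases were compared on both strands and promoters aligned locally with Biopython 1.88. Genes averaging 1 TPM or more (12748) were tested as log2(TPM + 1) with limma 3.58.1 (R 4.3.3), 2-sided, fitting age alone and an intensity trend, with Benjamini-Hochberg adjustment and 0.05 as the threshold. The fit was tested on simulated data.

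The members and lists were chosen with earlier results of these data known. All members are named, the 4 genes with the smallest unadjusted p of the neighbours and of each list, the most abundant markers, and the 5 genes most like Gm7609 and Sp100 with a mean of at least 5 TPM. A gene that this rule names is not reported here. Alternatives were pseudocounts of 0.1 and 0.5, other filters, 3 scalings, no trend, the replicate block and each library left out.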

Additional observations from a re-analysis of the deposited data

How the results depend on the processing

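The number of genes called was 3 and did not hold: it was 0 with no filter on low values and 0 with the replicate block, 15 with quantile normalization, 16 with median-of-ratios scaling, and between 0 and 2 with each library left out in turn. At an unadjusted p under 0.05, 440 genes were higher and 1274 lower, against 757 and 879 with median-of-ratios scaling. The cause was not tested. The Gm7609 log2 difference was 2.50 with a pseudocount of 0.1, between 1.98 and 2.25 with a library left out, and above 0 in every setting run. That of C130026I21Rik was 1.43 with a pseudocount of 0.1. The sum of the 6 members had a log2 difference of 0.34, between 0.26 and 0.43 with a library left out, 0.27 for Gm7609 with Sp100 and 0.29 without Sp110 and Sp140. With each library left out, the medians lay between -0.15 and 0.02 for the neighbours, -0.11 and 0.01 for the PML list, -0.10 and 0.03 for the chromatin readers and 0.05 and 0.25 for interferon genes, and 0 genes of these lists were called in any setting. Deviations of same-numbered libraries correlated at -0.012, -0.090 and 0.057, and 2 of the 6 libraries correlated best with their own number. So few libraries cannot settle whether those with the same number shared a step. The block rests on the shared number alone. TPM without depth limit the values under 5 TPM most, among them those of Gm7609 at 8 months (2.32 to 2.62 TPM).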

Other observations

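Outside the cluster, the 5 genes whose levels followed Gm7609 most closely within the ages were H2-T-ps, Uba7, Naxd, Tap1 and H2-T23. Likeness was measured as Pearson's r over the 6 libraries in log2(TPM + 1), after each age's mean was subtracted, among 9509 genes averaging 5 TPM or more. The 5 are the highest of 9509 coefficients over 6 libraries, so high values follow from the choice, and the likeness was not tested. H2-T-ps, a class I-like MHC gene annotated as a pseudogene, had r = 0.996, with 18.4, 31.6 and 19.8 TPM in the 18-month libraries against 13.0, 14.3 and 14.5 TPM in the 8-month libraries. Uba7, the enzyme that activates the ubiquitin-like protein ISG15, had r = 0.993, with 221.0, 294.2 and 237.0 TPM against 190.1, 196.9 and 200.8 TPM. Tap1, a subunit of the peptide transporter of class I presentation, had r = 0.987, with 127.0, 270.4 and 134.5 TPM against 108.0, 102.5 and 118.0 TPM. H2-T23, a non-classical class I chain, had r = 0.984, with 1801, 3490 and 2183 TPM against 1777, 1786 and 1974 TPM. Naxd, a metabolite repair enzyme, had r = 0.988, with 92.5, 109.9 and 97.1 TPM against 102.9, 103.8 and 106.0 TPM. In all 5 the second 18-month library was the highest of the 6, as it was for Gm7609. Class I genes have near-identical copies, which makes their levels uncertain.

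The genes picked in the same way for Sp100 were others, and the difference between the lists was not tested. Snap47, Adipor2, Mrps9, Pnpla7 and Tnip1 had r between 0.985 and 0.997 by the same measure. Tnip1, a restraint on NF-kB signalling, measured 32.8, 37.8 and 38.4 TPM in the 18-month libraries, against 31.6, 33.6 and 40.8 TPM in the 8-month libraries. Within the ages Gm7609 itself correlated with Sp110 at r = 0.95, with C130026I21Rik at 0.81, with Sp140 at 0.67, with Sp100 at 0.60 and with A530032D15Rik at 0.15 over the 6 libraries. Sp110 has no 31-base sequence in common with Gm7609, while Sp100 has. The part of shared sequence in these coefficients was not tested.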
